A study of Rattus norvegicus with 6 samples.

Results

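The genes described here are 10 rat genes of the AP-1 family and its immediate early neighbours: the Fos family (Fos, Fosb, Fosl1 and Fosl2), the Jun family (Jun, Junb and Jund), the stress-induced factor Atf3, the zinc finger factor Egr1 and the phosphatase Dusp1. They were taken by symbol from the deposited gene table, where each of the 10 matched 1 row of 34045 genes by a rule that reads symbols and no measured value, though the set was proposed with earlier results of these data known. RNA sequencing was done on defects in the skull roof of male Sprague-Dawley rats, an outbred stock, labelled wild type. The defects had received a hydrogel called CGG (3 libraries) or a hydrogel called CGG-Cit (3 libraries), and all 6 libraries were taken at week 4 after surgery. The labels do not spell out the gel names, and the series title speaks of hydrogels carrying a metabolite of the tricarboxylic acid cycle. No group without a gel was analysed here, so each value compares 1 gel with the other. Whether libraries of a group came from separate rats is not stated in the labels, so p-values reflect how these libraries varied, part of which may be technical.

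AP-1 is a transcription factor made of 2 basic leucine zipper proteins, most often a Fos protein paired with a Jun protein. Fos proteins cannot pair with themselves and need a Jun partner, while Jun proteins can pair with each other, with Fos proteins or with ATF proteins. Most of these genes are immediate early genes: existing factors switch them on within minutes of growth factors, cytokines, mechanical load or tissue damage, and many of the messages decay fast. In bone, Fos is needed for osteoclasts to form, and Fosl1, Fosl2 and Junb act in osteoblasts and matrix production. They also respond to the cutting and warming of tissue after death.

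The promoters of Dusp1, Jund and Egr1 hold elements through which such signals can act. RefSeq windows on build GRCr8 were at hand for 7 members (Fosb, Fosl1, Fosl2, Junb, Jund, Egr1 and Dusp1), and the 250 bases before the listed start were searched on both strands. The 2 windows printed, 5′ to 3′ along the gene, hold the full cyclic AMP element TGACGTCA, which CREB and ATF proteins and some AP-1 pairs can bind, and which is in capitals. The Dusp1 window is chr10:17184603-17184852, plus strand, and the Jund window is chr16:18769772-18770021, minus strand.
Dusp1: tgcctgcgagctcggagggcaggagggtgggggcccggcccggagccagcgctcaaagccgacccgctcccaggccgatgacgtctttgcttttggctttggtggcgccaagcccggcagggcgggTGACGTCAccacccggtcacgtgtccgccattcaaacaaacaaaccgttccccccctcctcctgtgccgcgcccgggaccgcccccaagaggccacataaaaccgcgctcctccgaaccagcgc
Jund: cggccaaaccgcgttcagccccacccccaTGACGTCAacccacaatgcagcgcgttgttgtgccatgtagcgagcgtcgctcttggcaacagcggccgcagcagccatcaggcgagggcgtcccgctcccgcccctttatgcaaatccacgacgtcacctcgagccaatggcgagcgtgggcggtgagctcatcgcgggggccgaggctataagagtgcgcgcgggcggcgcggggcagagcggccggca
The element began 124 bases before the start in Dusp1 and 221 bases before it in Jund, and it stood in 1.59% of 33469 windows of this length. The other 5 windows had no match to it. Egr1 had 2 CArG boxes, the element of serum response factor, which began 105 and 83 bases before the start. A CArG box stood in 1.5% of all windows. The AP-1 element TGACTCA, or TGAGTCA on the other strand, was found in 0 of the 7 windows and in 4.05% of all. Fosb, Fosl1, Fosl2 and Junb had no match to any of the elements searched. The matches describe letters in short windows and are not measured binding.

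Expression is given as FPKM, which counts sequenced fragments relative to gene length and to a size set for each library. Whole reads could be recovered from the values, and the totals were 14744207 to 16224920 reads per library. The size implied by the values was not this total. It was 1.59553e+07 in CGG 1, with 15054925 reads, and 1.56315e+07 in CGG 2, with 16224920 reads. How the submitters set it is not given in the sources used here, and every fold change depends on it. Differences were tested with limma on log2(FPKM + 1) over the 15965 genes that averaged 0.5 FPKM or more, with Benjamini-Hochberg adjustment over all of them. The threshold for a call was an adjusted p under 0.05. Log2 fold changes are those of CGG-Cit over CGG on that scale, which understates changes of low genes. All 10 members passed the filter on low values.

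In the CGG-Cit defects 7 of the 10 genes were higher and 0 were lower with limma, where 7.75% of all genes tested were higher and 9.78% were lower. The 7 were Atf3, Fosb, Fos, Jun, Dusp1, Junb and Jund, from 3.82-fold to 1.45-fold by the ratio of mean FPKM apart from Fosb, which stood at 4.67-fold from a low base. Egr1, Fosl1 and Fosl2 did not pass. The median log2 fold change was 0.83 over the 10 genes and 0.002 over all genes tested. In 8 of the 10 every CGG-Cit library lay above every CGG library, where 19.6% of all genes did so, and in 0 every library lay below, where 22.1% did. After rescaling to TPM, a scaling to equal summed FPKM, 8 of the 10 were higher, where 13.8% of all genes were higher and 5.96% lower. The number of the 10 that passed was 4 without CGG 2, where 2.63% of all genes were higher, 4 without CGG 3 (0.764% of all) and 2, Jun and Atf3, without CGG-Cit 2 (0.933% of all). It was 5 without CGG 1 (3.36% of all), 6 without CGG-Cit 1 (3.23%) and 7 without CGG-Cit 3 (8.22%), so calls among all genes also became fewer in each of these fits but the last. In bulk tissue fewer cells of a type and less RNA per cell cannot be told apart.

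**Figure D1:**
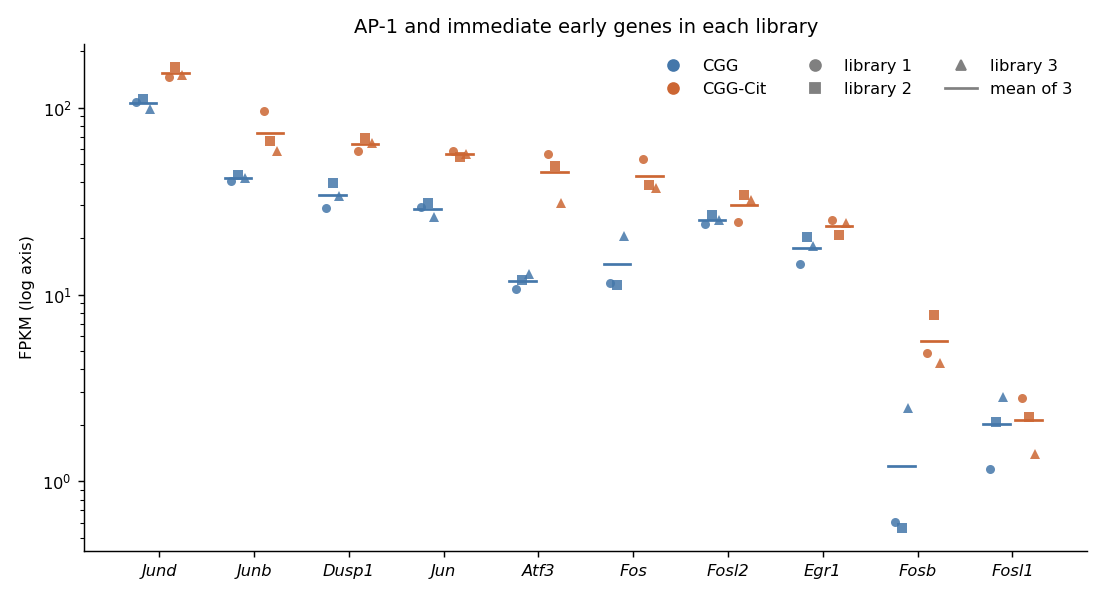
FPKM of the 10 genes in each library on a log axis, CGG in blue and CGG-Cit in orange, with a symbol for each library number and a bar at each group mean. The groups are apart for 8 genes, by a narrow margin for Egr1 (20.4 against 20.8 FPKM), and overlap for Fosl2 and Fosl1.

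Among the Fos genes, Fos and Fosb rose while Fosl1 and Fosl2 did not pass. Fos, the founding member and the classic marker of recent stimulation (ENSRNOG00000008015, listed at chromosome 6, 109300433 to 109303299), stood at 11.6, 11.3 and 20.7 FPKM in CGG 1, 2 and 3. In CGG-Cit 1, 2 and 3 it stood at 53.1, 38.8 and 37.1 FPKM. The groups did not overlap, and CGG 3 was the highest CGG library while CGG-Cit 1 was the highest of all. The means were 14.5 ± 5.33 and 43.0 ± 8.80 FPKM (SD, n = 3), 2.96-fold apart, with a log2 fold change of 1.54 ± 0.252 (SE; limma adjusted p = 0.0165). Fos no longer passed without CGG 2 (log2 fold change 1.40, adjusted p = 0.0508) or without CGG-Cit 2 (1.60, adjusted p = 0.0561).

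Fosb, whose protein and its shorter splice form build up under repeated stimulation, was the lowest of the 10 genes in CGG. It stood at 0.603, 0.564 and 2.46 FPKM in CGG 1, 2 and 3 (36, 33 and 140 reads) and at 4.84, 7.76 and 4.32 FPKM in CGG-Cit 1, 2 and 3 (277, 448 and 271 reads). As with Fos, CGG 3 was well above the other 2 CGG libraries and still below every CGG-Cit library. The log2 fold change was 1.66 ± 0.356 (SE; limma adjusted p = 0.0272). The call of Fosb ended when CGG 1, CGG 2, CGG-Cit 1 or CGG-Cit 2 was left out (adjusted p of 0.0657 to 0.0930). The table counts the gene as 1 feature, so its splice forms were not separated.

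Fosl2, also called Fra-2, a Fos protein of osteoblasts and osteoclasts that lacks the strong activation domain of Fos, stood at 23.9, 26.7 and 25.0 FPKM in CGG and at 24.4, 34.0 and 32.0 FPKM in CGG-Cit. CGG-Cit 1 lay within the CGG range and the other 2 CGG-Cit libraries above it. Its log2 fold change was 0.23 (95% interval -0.09 to 0.56; limma adjusted p = 0.268). The interval includes 0 and rises up to 0.56, so a small rise of Fosl2 was not excluded. The table lists a gene length of 744 bases for Fosl2, the shortest of the 10, against 1589 for Fos, and its FPKM level depends on that length.

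Fosl1, also called Fra-1, a Fos protein of bone matrix production, was low in every library. It stood at 1.17, 2.08 and 2.84 FPKM in CGG and at 2.79, 2.22 and 1.40 FPKM in CGG-Cit, from 31 to 72 reads. The ranges covered each other almost whole. The log2 fold change was 0.06 (95% interval -0.58 to 0.70; adjusted p = 0.886), and its sign turned without CGG 1 (-0.16) and without CGG-Cit 1 (-0.09).

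All 3 Jun genes rose, and with limma on log2(FPKM + 1) over all libraries Jun itself had the smallest p of the 10. Jun (ENSRNOG00000026293, listed at chromosome 5, 114011189 to 114014277) encodes a partner with which Fos can bind DNA. It stood at 29.4, 31.0 and 26.0 FPKM in CGG and at 58.9, 54.6 and 56.9 FPKM in CGG-Cit. The values of each group lay close together and the lowest CGG-Cit library was 1.76 times the highest CGG library. The log2 fold change was 0.96 ± 0.094 (SE; limma adjusted p = 0.00436). Jun passed in all 19 alternatives, among them the main fit at a looser threshold, with log2 fold changes of 0.89 to 1.13.

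Junb, a Jun protein with weaker activation that can oppose Jun in some cells, stood at 40.4, 43.7 and 42.1 FPKM in CGG and at 95.8, 66.8 and 58.4 FPKM in CGG-Cit. CGG-Cit 1 was far above the other 2 of its group, and the groups did not overlap. The means were 42.1 ± 1.66 and 73.6 ± 19.6 FPKM (SD, n = 3), with a log2 fold change of 0.76 ± 0.180 (SE; adjusted p = 0.0339). Junb lost its call on leaving out any 1 of the CGG libraries or CGG-Cit 2 (limma adjusted p = 0.0802 to 0.104). With no such filter on low genes it did not pass either (adjusted p = 0.0543).

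Jund, the most evenly expressed Jun gene and less tied to acute stimulation, was the most abundant of the 10 in both groups. It stood at 107.1, 110.9 and 98.8 FPKM in CGG and at 145.4, 165.1 and 150.3 FPKM in CGG-Cit. Its change was the smallest of the 7 that passed, 1.45-fold, and the spread within groups was also the smallest of the 10. The log2 fold change was 0.54 ± 0.093 (SE; limma adjusted p = 0.0182), and it no longer passed without CGG 3 (adjusted p = 0.0696) or CGG-Cit 2 (0.0658).

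Atf3, a repressor and AP-1 partner induced by many forms of stress and by injury, had a log2 fold change above that of Fosb at a pseudocount of 1 (1.81 against 1.66) and below it at a pseudocount of 0.1 (1.88 against 2.39). Atf3 (ENSRNOG00000003745, listed at chromosome 13, 109817728 to 109849632) stood at 10.8, 11.9 and 13.0 FPKM in CGG and at 56.3, 49.0 and 30.7 FPKM in CGG-Cit. The 3 CGG libraries lay close together, and CGG-Cit 3, the lowest of its group, was still 2.37 times the highest CGG library. The means were 11.9 ± 1.11 and 45.3 ± 13.2 FPKM (SD, n = 3), with a log2 fold change of 1.81 ± 0.220 (SE; limma adjusted p = 0.00818). Atf3 passed in all 19 alternatives, with adjusted p up to 0.0457 and log2 fold changes of 1.63 to 2.06.

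Dusp1, a phosphatase that switches off the p38 and JNK kinases and so limits the signals that induce these genes, also rose. It stood at 29.2, 39.5 and 33.5 FPKM in CGG and at 58.9, 69.2 and 64.6 FPKM in CGG-Cit. The lowest CGG-Cit library was 1.49 times the highest CGG library. The log2 fold change was 0.90 ± 0.129 (SE; limma adjusted p = 0.0123), and Dusp1 no longer passed without CGG 3 (adjusted p = 0.0551) or CGG-Cit 2 (0.0530).

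Egr1, an early growth response factor induced through serum response factor, did not pass. It stood at 14.5, 20.4 and 18.1 FPKM in CGG and at 25.0, 20.8 and 24.1 FPKM in CGG-Cit. Every CGG-Cit library was above every CGG library, but CGG 2 and CGG-Cit 2 lay almost level. The log2 fold change was 0.39 (95% interval 0.05 to 0.73; unadjusted p = 0.0315 and limma adjusted p = 0.107). Egr1 passed after rescaling to TPM (0.56, adjusted p = 0.0259), which moved the median log2 fold change of all genes from 0.002 to 0.15.

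**Figure D2:**
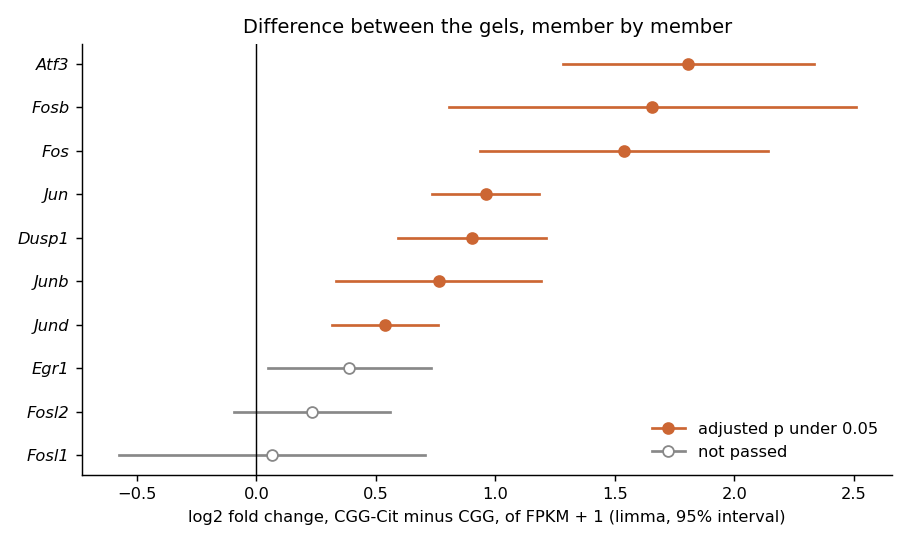
Log2 fold change of each of the 10 genes, CGG-Cit minus CGG, from limma on log2(FPKM + 1), with 95% intervals. The filled points are the 7 genes with an adjusted p under 0.05, from Atf3 at 1.81 to Jund at 0.54, and the open points are Egr1, Fosl2 and Fosl1.

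The order of levels, taken on FPKM because it is per length, differed between the groups in its lower part. The place of Fosl2 in it rests on the listed 744 bases, a length that could not be checked here. In CGG the order by mean was Jund, Junb, Dusp1, Jun, Fosl2, Egr1, Fos, Atf3, Fosl1 and Fosb. Library values overlapped between the neighbours Dusp1 and Jun, Jun and Fosl2, Egr1 and Fos, Fos and Atf3, and Fosl1 and Fosb. In CGG-Cit the order was Jund, Junb, Dusp1, Jun, Atf3, Fos, Fosl2, Egr1, Fosb and Fosl1. Here the overlaps were between Junb and Dusp1, Jun and Atf3, Atf3 and Fos, and Fosl2 and Egr1. Atf3 and Fos thus stood below Fosl2 and Egr1 by mean in CGG and above both in CGG-Cit. By mean over all libraries Jund lay at percentile 96.6 of the genes tested, Fos at 81.7 and Fosl1 at 21.1.

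Within the Fos family Fosl2 held the larger share of summed FPKM in CGG and Fos in CGG-Cit, and these shares rest on the listed length of Fosl2. In reads, which are not per length, Fosl2 had 284, 311 and 283 in CGG 1, 2 and 3 against 294, 280 and 500 for Fos, so Fosl2 was not the larger by reads in CGG 1 and CGG 3. Of the summed FPKM of the 4 Fos genes, Fos held 31.1%, 27.7% and 40.6% in CGG 1, 2 and 3. In CGG-Cit 1, 2 and 3 it held 62.4%, 46.9% and 49.6%. Fosl2 held 64.2%, 65.8% and 49.0% in CGG and 28.6%, 41.0% and 42.7% in CGG-Cit. The shares of Fos, Fosb and Fosl2 did not overlap between the groups, those of Fosl1 did, and CGG 3 lay nearest to CGG-Cit in the shares of Fos, Fosb and Fosl2. The mean share of Fos differed by 19.8 percentage points and that of Fosl2 by -22.2 points, each with an exact two-sided permutation p of 0.1. That is the smallest p that 3 against 3 libraries allow, and adjusted over the 7 shares tested it was 0.14, so no share could reach 0.05.

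The Jun family kept Jund as its largest part in every library, at 59.2% to 60.5% of the summed FPKM in CGG and 48.5% to 57.6% in CGG-Cit. Jun held 15.6% to 16.7% in CGG and 19.1% to 21.4% in CGG-Cit, without overlap (3.73 points, exact permutation p = 0.1, adjusted 0.14). The share of Junb was 22.9% to 25.2% in CGG and 22.0% to 31.9% in CGG-Cit (exact permutation p = 0.9), and the 31.9% of CGG-Cit 1 set the higher mean, since the difference was -1.24 points without that library. By FPKM, with the same limit from the length of Fosl2, summed Jun messages exceeded summed Fos messages 4.74-, 4.57- and 3.27-fold in CGG and 3.53-, 3.46- and 3.55-fold in CGG-Cit.

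**Figure D3:**
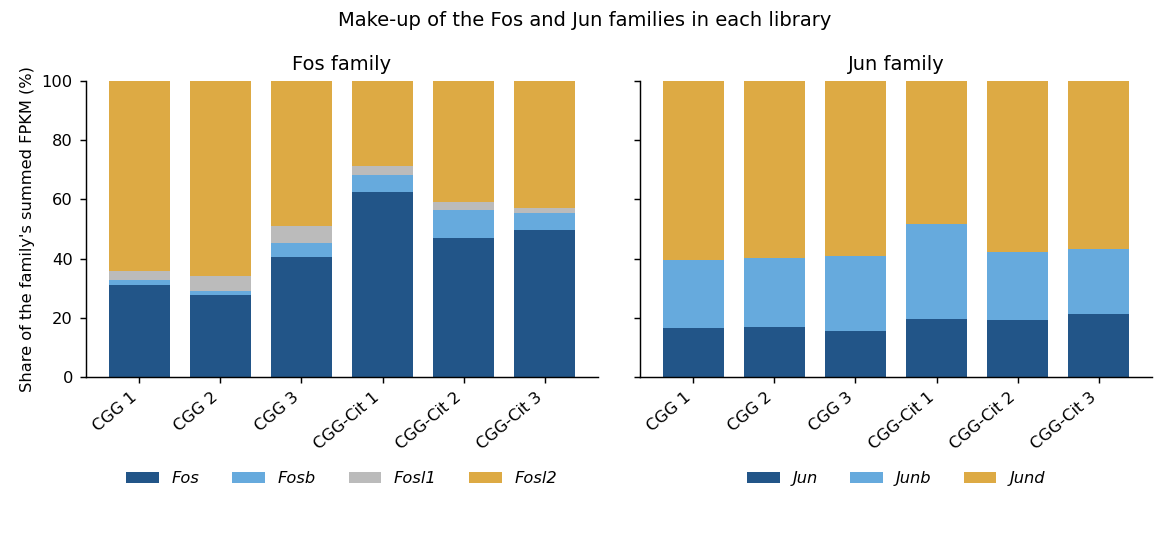
Share of each gene in the summed FPKM of its family, in percent, for each library, Fos family on the left and Jun family on the right. Fos takes 27.7% to 40.6% in CGG and 46.9% to 62.4% in CGG-Cit, while Jund stays the largest Jun gene in all 6 libraries.

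The libraries of a group differed from each other in some of these genes more than in others. The pooled SD within groups, on the log2(FPKM + 1) scale, was 0.53 for Fosb, 0.38 for Fos, 0.38 for Fosl1 and 0.33 for Atf3, against a median of 0.19 over all genes tested. These stood at percentiles 91.1, 82.5, 82.3 and 77.2 of all genes tested. Jun (0.10) and Jund (0.09) lay at percentiles 14.4 and 11.7.

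Which library was high also differed by gene. In CGG the library CGG 3 was highest for Fos, Fosb, Fosl1 and Atf3 and lowest for Jun and Jund. In CGG-Cit the library CGG-Cit 1 was highest for Fos, Fosl1, Jun, Junb, Atf3 and Egr1, and CGG-Cit 2 for Fosb, Fosl2, Jund and Dusp1. CGG-Cit 3 was the lowest of its group for Fos, Fosb, Fosl1, Junb and Atf3. Over the 6 deviations from the group means Pearson's r ran from -0.92 between Fosb and Jun to 0.83 between Junb and Atf3. It was 0.81 between Fosl1 and Atf3, 0.79 between Fos and Fosl1 and 0.68 between Fos and Fosb. It was -0.81 between Fosl2 and Junb, -0.79 between Fos and Jund and -0.61 between Fos and Jun. These are descriptions over 6 libraries that share a scaling, and 2 of the 6 deviations are fixed by the group means.

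**Figure D4:**
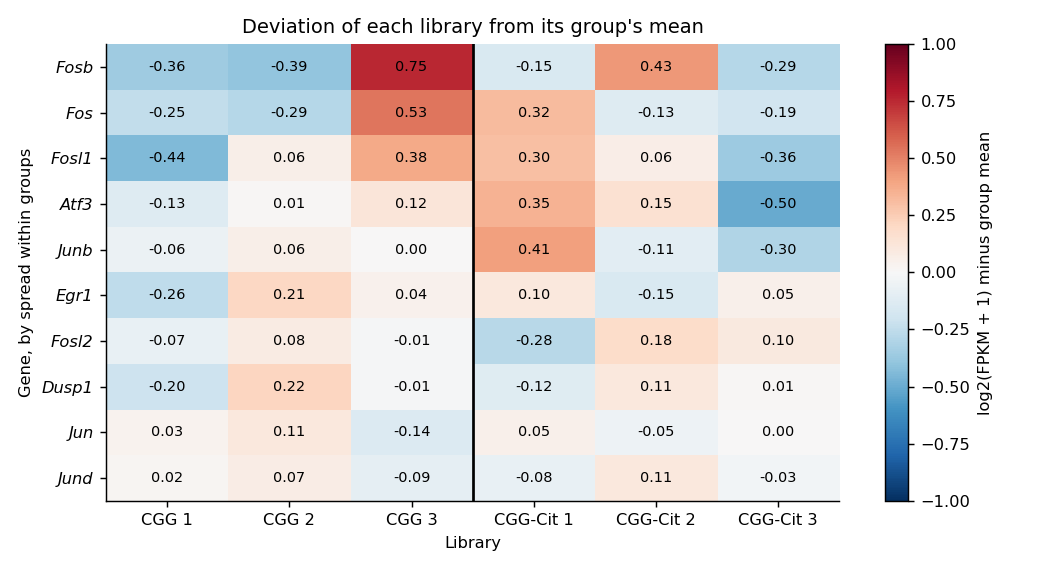
Deviation of each library from the mean of its group, in log2(FPKM + 1), for the 10 genes ordered by their spread within groups. CGG 3 is high for Fosb (0.75) and Fos (0.53), CGG-Cit 1 is high for Junb (0.41), and Jun and Jund stay within 0.14 of their group means.

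The summed FPKM of the 10 genes was 268.7, 298.2 and 282.4 in CGG and 525.4, 508.2 and 459.8 in CGG-Cit. Jund alone made up much of this, and without it the sums were 161.6 to 187.3 and 309.5 to 380.0 FPKM. No library of one group reached the range of the other on either sum.

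Of 32 other immediate early genes listed, 30 were tested, 9 rose and 0 fell with limma. Over all genes tested 7.75% rose and 9.78% fell. The median log2 fold change of the list was 0.52. Without overlap of the groups 14 of the 30 were higher and 2 lower, where 19.6% and 22.1% of all genes tested were. The 4 with the smallest p among those that passed were Klf6, Ccn2, Egr2 and Ier5. Klf6, a Krüppel-like factor induced by injury, stood at 19.3, 22.4 and 23.0 FPKM in CGG and at 54.9, 46.0 and 39.7 in CGG-Cit (log2 fold change 1.08, adjusted p = 0.00972) and passed in all 19 alternatives. Ccn2, a matricellular growth factor target, rose by 0.94 (adjusted p = 0.0116). Egr2, a relative of Egr1, rose from 4.39 ± 0.276 to 12.3 ± 4.50 FPKM (SD, n = 3; log2 fold change 1.25, limma adjusted p = 0.0217).

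Ier5, an early response gene of growth signals and heat stress, rose by 0.78 (adjusted p = 0.0239). Several genes that are often induced with Fos did not pass, and they are named here after their values were seen. Ier2 stood at 44.1 to 54.4 FPKM in CGG and 37.6 to 49.4 in CGG-Cit, and Egr3 at 2.91 to 4.29 and 3.40 to 3.71. Nr4a1, a nuclear receptor induced with Fos in many tissues, averaged 8.27 ± 1.75 and 6.46 ± 0.338 FPKM (SD, n = 3). Their limma adjusted p were 0.541, 0.888 and 0.223. Nr4a2, of the same family as Nr4a1 and also named after its values were seen, passed (limma adjusted p = 0.0412). It averaged 2.01 ± 0.289 and 3.53 ± 0.535 FPKM (SD, n = 3), and its call ended without CGG 3 and without CGG-Cit 2. Ccn2 lost its call when CGG 3 was left out (0.0524). Egr2 lost it on leaving out any 1 of the CGG libraries or CGG-Cit 2 (at most 0.0757), and Ier5 on leaving out any but CGG-Cit 3 (at most 0.0793). The count of 9 fell to 1 when CGG 3 was left out, where 0.764% of all genes rose, and to 2 when CGG-Cit 2 was (0.933%). It fell to 3 when CGG 1, CGG 2 or CGG-Cit 1 was left out (3.36%, 2.63% and 3.23% of all genes).

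Among 16 other basic leucine zipper genes that can pair with AP-1 proteins, 2 rose and 1 fell, with a median of 0.20. The shares over all genes tested were 7.75% and 9.78%. Ddit3, the stress factor CHOP, rose from 23.2 ± 2.84 to 56.1 ± 15.3 FPKM (SD, n = 3; log2 fold change 1.21, limma adjusted p = 0.0158). Mafa, known from pancreatic beta cells, fell by 1.49 (limma adjusted p = 0.0219) from 6.15 ± 2.59 to 1.49 ± 0.581 FPKM. The calls of Ddit3 and Mafa ended when CGG 3 or CGG-Cit 2 was left out, and that of Mafa also when CGG-Cit 1 was (limma adjusted p at most 0.0776). The 2 rises thus became 0 on leaving out CGG 3 or CGG-Cit 2, where 0.764% and 0.933% of all genes rose. They became 1 on leaving out CGG 2 or CGG-Cit 1 (2.63% and 3.23% of all genes).

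Of the MAP kinase phosphatases besides Dusp1, 9 of 10 were tested, 2 rose and 0 fell, with a median of -0.05. Beside this, 7.75% of all genes tested rose and 9.78% fell. Dusp16, which acts on JNK, rose from 3.02 ± 0.182 to 5.30 ± 0.691 FPKM (SD, n = 3; limma adjusted p = 0.0232). Dusp6, which acts on ERK, rose from 21.9 ± 2.06 to 29.6 ± 1.60 (0.0344). Neither call held in a fit without any 1 library except CGG-Cit 3 (adjusted p up to 0.105).

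The kinases and serum response regulators upstream were tested in 21 genes, of which 1 rose and 2 fell, with a median of -0.06. Among all genes tested the shares were 7.75% and 9.78%. Elk3, a cofactor of serum response factor, rose by 0.54 (limma adjusted p = 0.0352). Mapk12, a p38 kinase abundant in skeletal muscle, fell by 0.90 (0.0155), and Mapk14, the widespread p38 alpha, fell by 0.45 (0.0460). Elk3 and Mapk14 lost their calls without any library but CGG-Cit 3 (adjusted p up to 0.140), and Mapk12 lost its call on leaving out CGG 2, CGG 3 or CGG-Cit 2 (at most 0.0603). Mapk14 also did not pass after rescaling to TPM (0.176), with equal totals without the 50 most abundant genes (0.0644) or without the filter on low values (0.0622), and neither did Elk3 without that filter (0.0514).

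Of 17 tested genes known as AP-1 targets 4 rose and 2 fell, where 7.75% of all genes tested rose and 9.78% fell. The median of the list was 0.52. Ccnd1, cyclin D1, rose from 18.5 ± 2.86 to 39.5 ± 6.32 FPKM (SD, n = 3; log2 fold change 1.05, limma adjusted p = 0.0136). Lox, a collagen cross-linking enzyme, rose by 0.50 (0.0155) and Plau, the urokinase protease, by 1.04 (0.0320). Mmp13, a collagenase of osteoblasts and chondrocytes, was lower, at 260.8 ± 55.3 FPKM in CGG and 134.4 ± 16.0 in CGG-Cit (log2 fold change -0.94, adjusted p = 0.0192).

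The calls of all 4 of these targets ended without CGG 3 and without CGG-Cit 2. That of Mmp13 also ended on leaving out CGG-Cit 1, and that of Plau on leaving out CGG 1, CGG 2 or CGG-Cit 3 (adjusted p at most 0.107) or the filter on low values (0.0539). On leaving out CGG 3 or CGG-Cit 2, both counts became 0, where 0.764% and 0.933% of all genes rose and 1.19% and 1.56% fell. On leaving out CGG 1 or CGG 2 there were 2 rises and 1 fall, where 3.36% and 2.63% of all genes rose and 4.17% and 3.12% fell. There was 1 fall on leaving out CGG-Cit 1, where 3.06% of all genes fell.

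**Figure D5:**
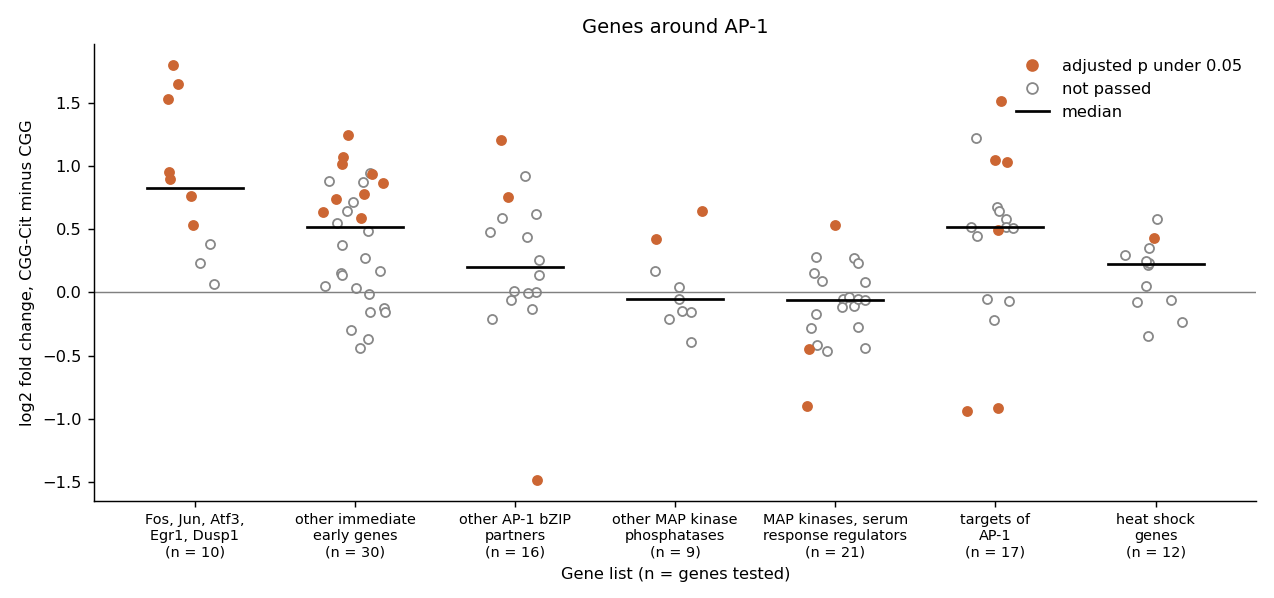
Log2 fold change, CGG-Cit minus CGG, of every tested gene in the 10 described genes and 6 related lists, with filled points for an adjusted p under 0.05 and a bar at each median. The medians are 0.83 for the 10 genes, 0.52 for other immediate early genes, 0.52 for AP-1 targets, 0.23 for heat shock genes and near 0 for phosphatases and kinases.

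Tissue handling also induces these genes, and the time between death and RNA isolation is not given in the sources used here. Heat shock genes, which handling can induce as well, were set beside them. Of 12 tested, 1 rose and 0 fell, with a median of 0.23, where 7.75% of all genes tested rose and 9.78% fell. Bag3, a co-chaperone, rose by 0.43 (limma adjusted p = 0.0286), a call that ended on leaving out any library but CGG 2 (at most 0.101). Hspa8, a constitutive chaperone, averaged 226.6 ± 5.33 and 279.6 ± 37.1 FPKM (SD, n = 3; limma adjusted p = 0.127, and 0.0427 after rescaling to TPM). Hspa1b, an inducible chaperone named here after its values were seen, averaged 0.997 ± 0.681 and 1.45 ± 0.309 FPKM (SD, n = 3). The summed heat shock FPKM was 1055, 1089 and 1175 in CGG and 1247, 1096 and 1075 in CGG-Cit, so the groups overlapped. Most of that sum was Hspa8 and Hsp90ab1, the latter at a mean of 466.7 FPKM in CGG and 442.6 in CGG-Cit. The overlap of the sum thus says little about low inducible genes such as Hspa1b. The part of handling in the values of the 10 genes was not tested.

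Cell type markers moved with the groups as well, and are given beside 7.75% of all genes tested higher and 9.78% lower. Summed FPKM of 8 skeletal muscle markers was 6131 to 7207 in CGG and 34.3 to 309.3 in CGG-Cit (8 of 8 lower). For 8 neutrophil markers it was 14315 to 16221 and 2292 to 5975 (7 of 7 tested lower), for 6 erythroid markers 34615 to 43533 and 11318 to 24644 (5 lower), and for 5 B cell markers 80.1 to 138.9 and 37.5 to 59.9 (2 lower). Higher were 6 of 8 macrophage markers, summed at 607.3 to 706.1 and 1035 to 1545 FPKM, and 6 of 7 fibroblast markers, at 811.5 to 1380 and 1638 to 1926. Osteoblast markers were present at 8591 to 12632 and 4205 to 7150 FPKM (5 of 7 lower). Most of that sum was Col1a1, which averaged 7111 and 4515 FPKM and did not pass (limma adjusted p = 0.138). Osteoclast markers overlapped at 1274 to 1676 and 762.0 to 1679 FPKM (1 of 5 tested higher). Endothelial markers stood at 88.5 to 140.5 and 118.6 to 159.6 FPKM and T cell markers at 19.8 to 25.4 and 27.1 to 79.1, with 0 of 5 and 0 of 4 called by limma (1 and 2 at an unadjusted p under 0.05). Keratinocyte markers stayed under 10.5 FPKM in sum, with Krt14 at 0 in every library. The part of these cell types in the values of the 10 genes was not tested.

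The genes most like Fos over the 6 libraries, by Pearson's r of log2(FPKM + 1) among 13897 named protein-coding genes, were Glis3, AABR07060350.1, Myo5a, Pqlc2 and Slc41a2, at r of 0.990 to 0.997. Glis3, a Krüppel-like zinc finger factor, stood at 1.25, 1.18 and 1.75 FPKM in CGG and 3.26, 2.61 and 2.72 in CGG-Cit. Myo5a, a myosin that carries vesicles, stood at 14.7, 13.4 and 18.3 FPKM and 31.7, 27.9 and 24.5. Both followed Fos in having CGG 3 as the highest CGG library and CGG-Cit 1 as the highest of all. AABR07060350.1 had 0 to 8 reads per library, so its r rests on few reads. The genes most like Egr1 were Ubap2l, Itga8, Rgs16, Tmem258b and Fbln2, at r of 0.970 to 0.987, and Tmem258b among them had 4 to 11 reads per library. An r over 0.95 was reached by 138 genes with Fos and by 25 with Egr1, which over 6 libraries with 2 groups is a description only.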

How the data were processed

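Paired-end RNA sequencing was done on an Illumina NovaSeq, per the labels' protocols. The authors deposited FPKM values, gene lengths and gene coordinates in 1 table. Build mRatBN7.2 and the tools DESeq2 1.20.0, featureCounts 1.5.0-p3 and HISAT2 2.0.5 appear in the submitters' processing notes without their roles, and a strand setting is not given in the sources used here. Overlapping or antisense genes may thus share reads. Gene coordinates are printed as listed, with no build. FPKM times gene length gave whole multiples of 1 read, within 0.01 reads, for 100% of the values above 0.

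limma 3.58.1 in R 4.3.3 (lmFit, and eBayes with a trend) was run without a block, after a test on simulated data, whose pass criteria were revised after its first results. False calls there exceeded the nominal rate and came almost only from genes with very few reads. The simulation gave every gene the same spread beyond counting noise, unlike these data. Its outcome thus does not carry over to genes of large spread such as Fosb. No label says that libraries with equal replicate numbers share an animal or day. Tables and figures used Python 3.11.15, pandas 2.3.3 and matplotlib 3.10.9. Of 197 symbols in 18 lists 190 matched 1 row, 1 of them through a synonym. The genes, lists and tests were chosen with earlier results of these data known. Named genes were the 10, up to 4 called genes with the smallest p of each list (the 2 with the smallest p where fewer than 2 were called), and the 5 most correlated with Fos and with Egr1; 1 gene that the rule names is counted in its list but not reported here. Alternatives were 2 other pseudocounts (0.1 and 0.5), 2 other filters, 4 scalings, robust variances, sample weights, the block, each library left out, voom on recovered reads and an adjusted p under 0.1. The last is the main fit read at a looser threshold and not a separate fit.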

Additional observations from a re-analysis of the deposited data

How the results depend on the processing

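Jun and Atf3 passed in all 19 alternatives, and 9 of the 10 genes kept their direction in all of them. The alternative with an adjusted p under 0.1 is the main fit at a looser threshold, so its outcome for these genes was fixed. Fosl1 reversed without CGG 1 (-0.158) and without CGG-Cit 1 (-0.0858), and the Junb share reversed without CGG-Cit 1 (-1.24 points). Without 1 library the Fosl1 fold change ranged up to 0.255 and the Junb share difference up to 3.73 points. Without 1 library 2 to 7 of the 10 genes rose, and 122 to 1312 of all 15965 genes (0.764% to 8.22%). In the lists these fits gave 1 to 9 rises of other immediate early genes, 0 to 2 rises and 0 to 1 falls of leucine zipper partners, 0 to 2 rises of phosphatases, 0 to 1 rises and 0 to 3 falls of kinases and regulators, 0 to 5 rises and 0 to 2 falls of targets, and 0 to 1 rises of heat shock genes. After rescaling to TPM 4 partners, 2 kinases and regulators, 7 targets and 2 heat shock genes rose, and 1 kinase and 1 target fell. Without the filter on low values 0 kinases and regulators and 2 targets rose and 1 of each fell. With equal totals without the 50 most abundant genes 1 kinase and 1 target fell, and with quantile normalization 1 target fell. At an adjusted p under 0.1, 5 partners and 7 targets rose and 4 kinases fell. With the replicate block 3.83% of all genes rose and 5 of the 10 genes passed (Fosb and Junb did not, each with an adjusted p of 0.0657), as did 0 rises of phosphatases, 0 rises and 1 fall of kinases and regulators, 2 rises and 1 fall of targets and 0 heat shock genes. Deviations from the group means correlated at -0.096, 0.002 and -0.078 between libraries of equal number, and 0 of 3 had its own number as the best match. With 3 libraries per group these deviations are tied to each other by the group means. The correlations thus cannot decide whether libraries of equal number share an animal or day. The depth of 31 to 72 reads limits Fosl1.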
